A study of Caenorhabditis elegans with 2 samples.

Results

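Genes that build the centriole and its surrounding material were examined here for binding by REF-2: sas-4, sas-5, sas-6, zyg-1, spd-2 and spd-5. They are 6 of 19973 protein-coding genes on the 6 nuclear chromosomes of Caenorhabditis elegans. The genes were chosen by their shared role and with the peak signals of these same lists known, among them the strong sas-4 peak. Their signals and counts are therefore a description and carry no test. REF-2 is a DNA-binding protein with zinc fingers and the worm's relative of the vertebrate Zic proteins. Its binding was mapped by ChIP-seq, in which chromatin fragments pulled down with an antibody are sequenced. Whole hermaphrodite animals were taken as late embryos, at 3 hours after synchronization by egg bleaching. Every animal was of strain OP520, which carries unc-119(tm4063) and the transgene wgIs520, and this line expresses REF-2 with a GFP-FLAG tag at its C-terminus. The labels do not give the promoter of the transgene. The immunoprecipitation was directed at GFP (another label names ref-2 as the antibody), and there is 1 group with biological replicates 1 and 2. The measurement covers the tagged protein in all cells of the embryo together, and no untagged or input sample was analysed here.

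Centrioles are small barrels of microtubules at the core of the centrosome, and each one is copied once in every cell cycle. In the worm embryo SPD-2 brings the kinase ZYG-1 to the parent centriole, ZYG-1 recruits SAS-5 and SAS-6 to start the daughter, and SAS-4 then brings microtubules onto it. SPD-2 and SPD-5 also recruit and form the pericentriolar material, from which the spindle microtubules grow. All of these genes are needed for cell division in the early embryo.

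Sequence at the peak summits is shown for sas-4, sas-5, sas-6 and zyg-1, because these are the summits that lay before the 5' end of the gene. Each run is the plus strand of WBcel235 (ce11), 5′ to 3′, read from the RefSeq genome in the 300 bp centred on the summit and ended where an annotated untranslated region begins. Capitals mark matches to the motifs described further on, and a run with no match in the stretch shown is all in lower case. The sas-4 run lies at chrIII:8319261-8319432 with the summit at base 23, the sas-5 run at chrV:11610545-11610736, the sas-6 run at chrIV:13788738-13788906 and the zyg-1 run at chrII:5649511-5649747, the last 3 with the summit at base 151.
sas-4: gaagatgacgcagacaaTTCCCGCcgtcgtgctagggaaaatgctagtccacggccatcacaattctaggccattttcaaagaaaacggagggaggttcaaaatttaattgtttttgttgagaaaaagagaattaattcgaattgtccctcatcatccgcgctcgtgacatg
sas-5: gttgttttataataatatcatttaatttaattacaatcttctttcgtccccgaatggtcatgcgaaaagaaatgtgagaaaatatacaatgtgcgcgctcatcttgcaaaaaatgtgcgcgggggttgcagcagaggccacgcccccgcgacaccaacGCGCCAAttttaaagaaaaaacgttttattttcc
sas-6: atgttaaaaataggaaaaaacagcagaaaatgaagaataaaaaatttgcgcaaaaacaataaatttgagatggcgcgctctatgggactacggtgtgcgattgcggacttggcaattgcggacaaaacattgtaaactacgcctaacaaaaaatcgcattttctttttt
zyg-1: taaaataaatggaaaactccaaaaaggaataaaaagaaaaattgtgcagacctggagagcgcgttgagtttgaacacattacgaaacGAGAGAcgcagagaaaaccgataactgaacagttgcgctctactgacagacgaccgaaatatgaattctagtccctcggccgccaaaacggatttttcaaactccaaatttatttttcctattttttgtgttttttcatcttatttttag

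Peak lists on ce11 were read in 4 forms. The optimal list, thresholded on reproducibility, held 2129 peaks, and the pooled relaxed list and the relaxed list of each replicate held 30000 peaks each. The signal is the authors' value for each peak, in arbitrary units, and reads per library were not analysed here, so depth is unknown. Optimal peaks had pooled signals from 105.5 to 2351 and were the 2129 strongest of the pooled list. At the 2112 optimal summits found in both replicates, the pooled signal was 1.004 times the sum of the replicates' signals in the median, with 5th and 95th percentiles of 0.940 and 1.08. Pooled values are thus about the sum of the replicates' values, and levels in the replicates are set beside each other rather than beside the pooled level.

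REF-2 peaks of the optimal list were present at 5 of the 6 genes, at all but spd-2. These 5 genes each had 1 optimal summit in the gene window, which ran from 2000 bp upstream of the 5' end to 1000 bp downstream of the 3' end. Of all protein-coding genes, 12.7% had an optimal summit in that window. In the narrower promoter window, which began 1000 bp before the 5' end and ended 200 bp after it, 4 of 6 genes had an optimal summit (sas-4, sas-5, sas-6 and zyg-1), against 6.29% of all genes. Nothing is read from the difference to these shares, since the genes were selected on results from the same peaks. The gene window was a median of 5027 bp over all genes and ran from 4787 bp (sas-6) to 8380 bp (spd-5) among the 6.

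Summits of the relaxed lists were found at nearly all of them, and a summit of these lists in the gene window is common. All 6 genes had a summit in the gene window in the pooled list, in replicate 1 and in replicate 2, where 71.4%, 73.2% and 71.9% of all genes had one. In the promoter window, 5 had one in the pooled list and 5 in replicate 1, against 35.0% and 35.4% of all genes. In replicate 2 the promoter count was 4, against 34.3%, and the gene lost there was spd-2. The genes differed more in the size of the strongest pooled signal, which ran from 808 at sas-4 to 52.0 at spd-2.

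**Figure D1:**
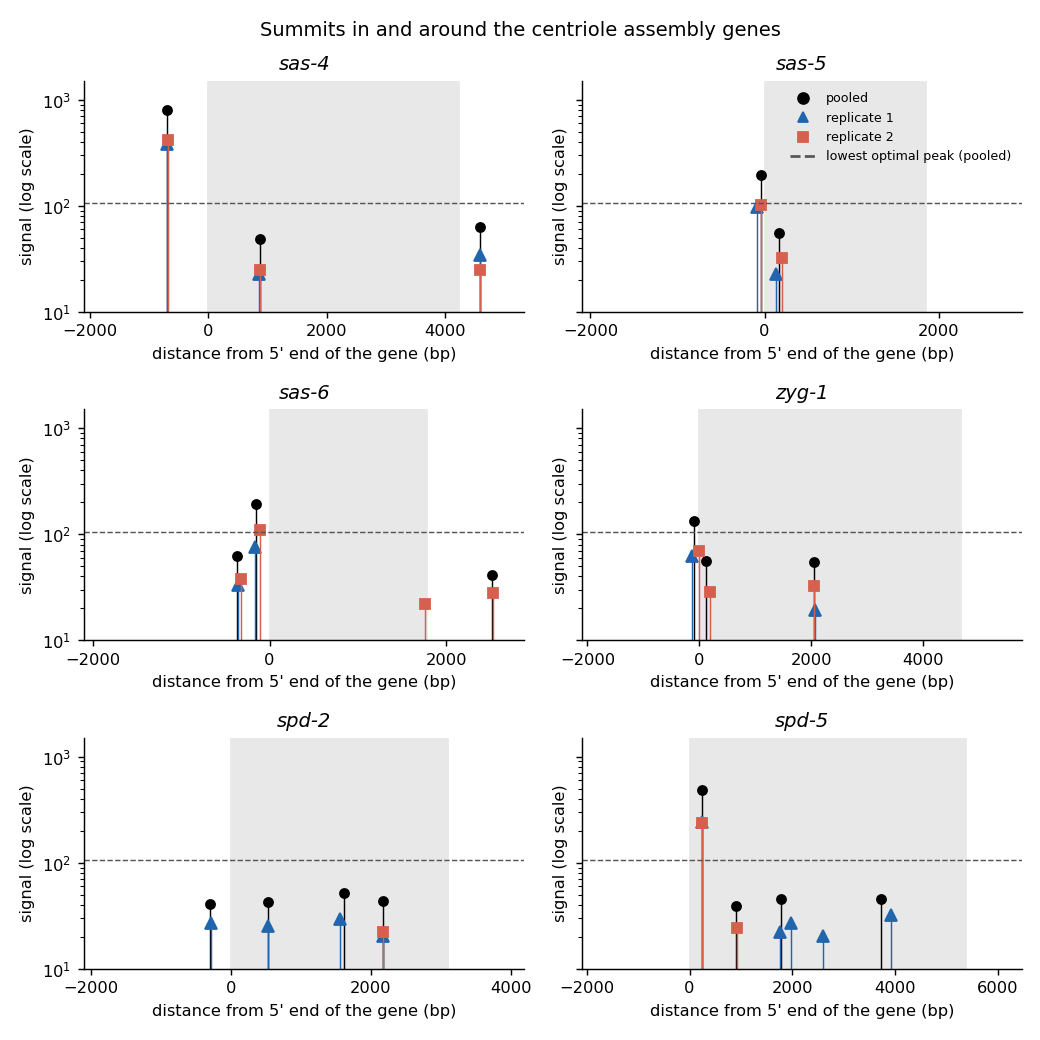
Signal of each summit (vertical, log scale, authors' units) against its distance from the 5' end of the gene in bp, for the pooled list, replicate 1 and replicate 2, with 1 panel per gene and the gene body shaded. The dashed line is the lowest pooled signal of the optimal list, 105.5. Each gene but spd-2 has 1 pooled summit above the line, between -695 bp (sas-4) and +235 bp (spd-5) from the 5' end, and at spd-5 the markers of both replicates coincide.

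SAS-4 is the centriole wall protein, and its gene had the strongest signal of the 6. The sas-4 gene (WBGene00004726, chrIII:8314349-8318588, minus strand) had its main summit at III 8319283, at -695 bp (distances are from the 5' end, negative upstream). The pooled signal of 808 ranked 6 of 30000 peaks. Replicate 1 gave 384 (rank 6) and replicate 2 gave 416 (rank 7), with summits offset by +4 and -11 bp from the pooled summit. Among all protein-coding genes, ordered by the strongest summit of the gene window, sas-4 ranked 10. The other pooled summits of the window were far weaker. A signal of 62.9 lay at +4591, past the 3' end and inside the convergent gene F10E9.2, and one of 48.2 lay at +875 in coding sequence.

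SPD-5, the scaffold of the pericentriolar material, came next. Its gene (WBGene00004955, chrI:5171275-5176654, minus strand) had the main summit at +235 bp, in an intron. The pooled signal was 484 (rank 33), with 242 in replicate 1 (rank 35) and 239 in replicate 2 (rank 44). The replicate summits were offset by 0 and -1 bp. The summit fell past the edge of the spd-5 promoter window at 200 bp, which is why spd-5 is missing from the promoter count. A second annotated spd-5 transcript start has the summit at -711 bp, and with any transcript start allowed spd-5 enters the count. The same summit lay at -410 bp from npp-6, a nuclear pore gene on the opposite strand.

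The genes for the partners that start the daughter centriole, sas-5 and sas-6, had nearly equal pooled signals. The sas-5 gene (WBGene00009385, chrV:11610737-11612596, plus strand) had a summit at -42 bp with a pooled signal of 196 (rank 566). It measured 96.7 in replicate 1 (rank 512) and 101.4 in replicate 2 (rank 589). The sas-6 gene (WBGene00012888, chrIV:13786945-13788731, minus strand) had a summit at -157 bp with a pooled signal of 193 (rank 575). It measured 76.4 in replicate 1 (rank 868) and 110.4 in replicate 2 (rank 481). The sas-6 values enclose the sas-5 values, so the order of these genes is within the spread of the replicates.

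ZYG-1 is the kinase that starts duplication, and its gene had the weakest peak of those in the optimal list. The zyg-1 gene (WBGene00006988, chrII:5649748-5654422, plus strand) had a summit at -87 bp with a pooled signal of 132 (rank 1313), which is 1.26 times the lowest optimal signal. Replicate 1 gave 62.9 (rank 1339, summit at -132) and replicate 2 gave 70.0 (rank 1445, summit at 0). The replicate summits were offset by -45 and +87 bp from the pooled summit, the widest scatter among the 5 optimal summits. This summit lay within a short annotated noncoding RNA gene, F59E12.14 (chrII:5649619-5649692, minus strand).

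SPD-2, which acts first in the pathway and also in the pericentriolar material, had no optimal peak at its gene. The spd-2 gene (WBGene00004953, chrI:8966985-8970081, minus strand) had 4 pooled summits with signals of 52.0, 43.6, 43.1 and 40.6, at +1611, +2168, +529 and -297. The strongest was 0.493 times the lowest optimal signal and ranked 15502, close to the middle of the list, whose median signal was 52.8. It lay in coding sequence. Replicate 1 had a summit within 200 bp of each of the 4, with signals from 20.4 to 29.7. Replicate 2 had a single summit in the whole window, with a signal of 22.02 (rank 28555) at +2173.

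The order of the genes was sas-4, spd-5, then sas-5 and sas-6, then zyg-1 and spd-2. As the mean of the replicates, the strongest signal was 399.6 ± 22.7 (SD, n = 2) at sas-4, 240.7 ± 1.78 at spd-5, 99.1 ± 3.35 at sas-5, 93.4 ± 24.0 at sas-6, 66.5 ± 4.98 at zyg-1 and 25.8 ± 5.41 at spd-2. The replicates' ranges of neighbours in this order did not overlap, except for sas-5 and sas-6. The spd-2 value joins different summits, at +1556 in replicate 1 and +2173 in replicate 2, while at the other genes both replicates matched the same pooled summit. These are ranges of 2 values per gene, and no test was run because the genes were chosen with their signals known. The −log10 q was 2.87 at sas-4 and at spd-5, the highest value of the list, shared by 372 of the 2129 optimal peaks. It was 2.58 at sas-5 and at sas-6, 1.83 at zyg-1 and 0.0956 at the strongest spd-2 summit.

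**Figure D2:**
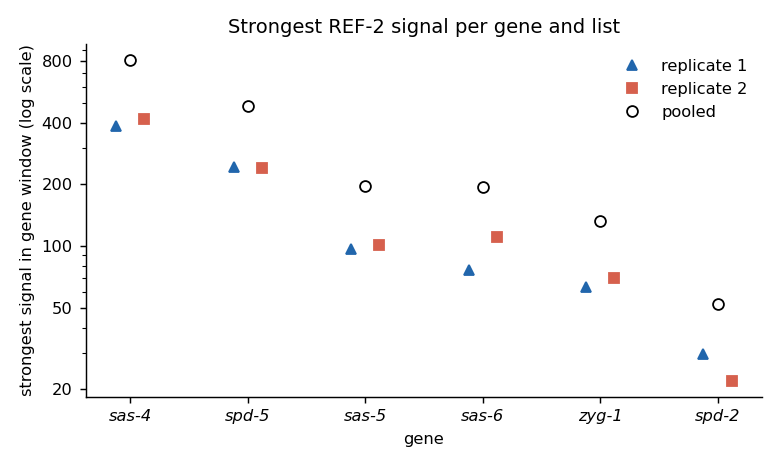
Strongest signal in the gene window (vertical, log scale, authors' units) for each gene, in replicate 1, replicate 2 and the pooled list. The replicates of sas-4 lie at 384 and 416 and those of spd-2 at 29.7 and 22.02, and the ranges of sas-5 and sas-6 overlap.

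Replicates differed little at 4 of the 5 optimal summits and most at sas-6. The log2 ratio of replicate 2 to replicate 1 was 0.12 at sas-4, 0.07 at sas-5, 0.53 at sas-6, 0.15 at zyg-1 and -0.02 at spd-5. Over the 2112 optimal summits found in both replicates the median was 0.18 and the SD 0.45, with 5th and 95th percentiles of -0.52 and 0.89. The sas-6 ratio stood at the 81.2 percentile of these peaks and that of spd-5 at the 29.7 percentile, so all of the genes lay within the usual range. For that range the same replicate summit could be matched to several optimal summits, and how far this widens it was not tested. At spd-2 no ratio could be formed, because replicate 2 had no summit within 200 bp of the strongest pooled one.

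**Figure D3:**
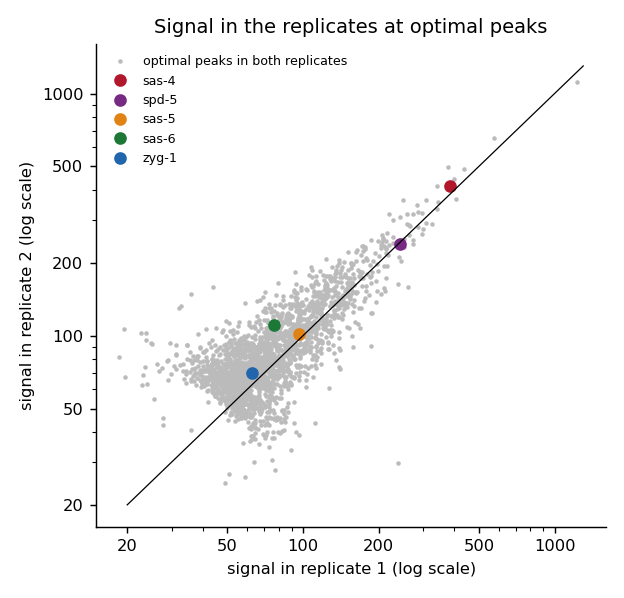
Signal in replicate 2 against signal in replicate 1 (log scales, authors' units) at the 2112 optimal summits found in both, with the 5 centriole assembly genes marked and the line of equal signal drawn. The sas-4 and spd-5 points lie close to the line, and sas-6 lies above the line at 76.4 and 110.4.

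Every one of the 5 optimal summits also lay in the promoter window of another protein-coding gene, so the lists do not resolve the gene a summit belongs to. The sas-4 summit was at -23 bp from F10E9.11, a gene on the same strand that ends 89 bp before sas-4 begins. It was thus much closer to the 5' end of F10E9.11 than to that of sas-4 (-695 bp). It also fell in the gene window of F10E9.10, past that gene's 3' end. The sas-6 summit was at -19 bp from Y45F10D.7, on the opposite strand, and at -157 bp from sas-6. The zyg-1 summit was at -191 bp from F59E12.17 and at -375 bp from sam-4, both on the opposite strand. The sas-5 summit was at -546 bp from piit-1, also divergent, and so nearer to sas-5. Measured to the nearest 5' end of a protein-coding gene, the summits nearest to a member were those of sas-5, zyg-1 and spd-5. All 4 summits in promoter windows of members were shared, against 32.0% of the 972 optimal summits in any promoter window (311 summits). Sharing depends on how closely the 5' ends of genes lie, so nothing about binding is read from this count.

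All of the genes but sas-4 (5 of 6) stand head to head with a gene on the opposite strand, with 5' ends 1 to 1000 bp apart. In the genome 3539 genes (17.7%) do so, and 14.4% of those had an optimal promoter summit. The distance between 5' ends was 175 bp for spd-5 and npp-6, 176 bp for sas-6 and Y45F10D.7, 210 bp for spd-2 and F32H2.10, 278 bp for zyg-1 and F59E12.17 and 588 bp for sas-5 and piit-1. The spd-2 pair is arranged like the sas-6 and spd-5 pairs and is about as close. It had only the relaxed summit of 40.6 at -297, which replicate 1 matched with a signal of 26.8 and replicate 2 did not match.

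The called peaks differed in width. Optimal peaks were usually 440 bp wide, and 86 of them (4.04%) were narrower, with 43 of the 50 strongest among these. The spd-5 peak was 201 bp wide and the sas-4 peak 294 bp, while those of sas-5, sas-6 and zyg-1 had the full 440 bp. The weak pooled summits of the gene windows, outside the optimal list, were all called at 440 bp too. The full width was 424 bp in replicate 1 and 450 bp in replicate 2. A full width may thus be set by the peak calling, which was not tested, and no shape of the signal is read from it. The main summit was 12.9 times the second strongest of its window at sas-4 and 10.7 times at spd-5. At sas-5, sas-6 and zyg-1 it was 3.50, 3.09 and 2.39 times, and at spd-2 1.19 times. In the 3 genes with full-width peaks, the second summit stood 204 to 210 bp from the main one. Its signal was 56.0 at sas-5, 62.7 at sas-6 and 55.5 at zyg-1. The called intervals of main and second summit overlapped at each of them, and whether the spacing comes from the peak calling was not tested. Of all optimal summits 29.8% had another pooled summit within 250 bp.

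Away from the main summits the gene windows held only weak signal. In all, the pooled list had 19 summits in the 6 windows, and the 14 outside the optimal list had signals of 39.1 to 62.9. Of these 14, 6 (42.9%) had a summit within 200 bp in both replicates, against 53.2% of the 27871 pooled summits outside the optimal list. Both pooled sas-4 summits of this kind were matched in both replicates, as were 1 summit each at sas-5, sas-6, zyg-1 and spd-2, and none of the 3 at spd-5. The zyg-1 summit at +2053 (54.4) lay in an intron that holds bli-2, a cuticle collagen gene on the opposite strand. The sas-6 summit at +2523 (41.6) lay in icap-1, downstream on the same strand.

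Near the edges of the gene window, the closest summit left out was one of replicate 1 at -2045 from spd-5, 45 bp outside, with a signal of 19.2. In the pooled list it was one at +5844 from zyg-1, 170 bp past the downstream edge and below the optimal list's lowest signal. The pooled summit nearest to an edge from within was that of sas-6 at +2523, 263 bp inside.

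Sequence at the 5 optimal summits was searched on both strands, in 300 bp centred on the summit, for CAGCAGG and CAGCGGG (forms of the core bound by Zic factors), TTCCCGC and TTGGCGC (E2F-type cores), CAGCTG and CACGTG (E-boxes) and GAGAGA. Zic-type and E2F-type cores can share part of their letters on opposite strands, but no matches overlapped at these summits. The E2F-type core TTCCCGC was present at sas-4, sas-5 and sas-6. It is held by 6.95% of optimal summit windows and by 3.22% of promoter windows, which held 250 bp before and 50 bp after the 5' end of each gene. At sas-4 it lay over the summit, with its middle base at -2 bp from it, as the capitals in the run above show. At sas-5 its middle lay 81 bp from the summit, just inside the gene, and at sas-6 108 bp from the summit, inside Y45F10D.7. The other core, TTGGCGC, was found at sas-5, 11 bp from the summit and at -31 bp from the gene, against 4.09% of optimal windows and 2.17% of promoters. In the run above it appears as its reverse complement.

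Of the Zic-type cores, CAGCGGG was found at sas-4, at -50 bp from the summit and inside F10E9.11, and is held by 3.80% of optimal windows and 0.841% of promoters. CAGCAGG was at none of the 5 summits and in 4.65% of optimal windows and 1.23% of promoters. GAGAGA was found at sas-4 and zyg-1, at -36 and -60 bp from the summit, and is held by 50.8% of optimal windows and 21.8% of promoters. Neither E-box was found in any of the 5 windows (9.53% and 6.01% of optimal windows, 5.55% and 5.82% of promoters, for CAGCTG and CACGTG). The spd-5 window held none of the 7 motifs. A match is a string of letters and no evidence of a bound factor, and a missing one says only that these letters are not in the window. GC content was 42.0% at sas-4, 39.0% at sas-5 and at zyg-1, 34.0% at sas-6 and 46.0% at spd-5, where the median was 45.7% at optimal summits and 34.3% at promoters.

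The promoter summits closest in level to that of sas-4, by distance of log2 signal in the 2 libraries, were those of eel-1, of lin-35 with vps-51, and of tasp-1 with K01G5.10. EEL-1, a ubiquitin ligase, had 399 in replicate 1 and 445 in replicate 2, a distance of 0.11. The summit between lin-35 and vps-51 had 342 and 416 (0.16), and that of tasp-1 and K01G5.10 had 407 and 366 (0.20). They held ranks 5, 8 and 7 of the pooled list, around rank 6 of sas-4. The distance uses signal alone, so it finds neighbours in rank and says nothing of other traits.

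Other genes of the centrosome were looked up from 4 lists of 43 genes in all, compiled with earlier results of these data known. An optimal summit lay in the gene window of 19 of 43 (44.2%) and in the promoter window of 11 (25.6%), where 12.7% and 6.29% of all genes had one. The median of the strongest pooled signal was 96.7 in the 43 genes and 53.9 over all genes, counting genes with no summit as 0. The window of the 43 genes was longer, with a median of 6593 bp against 5027 bp. Nothing particular to the lists is read from these counts.

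Among the 43 other centrosome genes looked up, the strongest peaks were at lin-35 and atx-2, both listed here as regulators of centriole duplication. The next were at tba-1 (407) and spat-1 (363), which stand in other lists. No order of the lists is read from this, since they were compiled with earlier results known. Of 16 such regulators, 9 (56.2%) had an optimal summit in the gene window and 6 (37.5%) in the promoter. Of all protein-coding genes, 12.7% and 6.29% had one. The median gene window was 6065 bp in this list and 5027 bp over all genes. The retinoblastoma-related repressor lin-35 had a promoter signal of 757 (rank 8, a summit shared with vps-51). The ataxin-2 gene atx-2 had 618 (rank 12, shared with ecps-1), with 284 in replicate 1 and 345 in replicate 2. The E2F-like gene efl-1 had 175 (rank 720, shared with fbxa-90), with 77.2 and 97.0 in the replicates.

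Among 15 genes for the pericentriolar material and microtubule nucleation, 7 (46.7%) had an optimal summit in the gene window and 4 (26.7%) in the promoter. For this list and those that follow, the shares over all genes are again 12.7% and 6.29%. The median gene window was 8281 bp here, 5122 bp for the tubulin list and 7657 bp for the other centriole genes, against 5027 bp over all genes. The Bora gene spat-1, an activator of Polo kinase, had 363 (rank 83, 187 and 183 in the replicates, shared with F57C2.5). The gamma-tubulin gene tbg-1 had 151 (rank 962, shared with rpac-19) and ptrn-1, for a protein of microtubule minus ends, had 140 (rank 1159). Of 9 tubulin and centrosome positioning genes, 2 had a summit in the gene window and 1, the alpha-tubulin gene tba-2 (125, rank 1464), in the promoter. The other was tba-1, with a stronger summit of 407 (rank 60, 172 and 235 in the replicates). It lay at -1095 bp, just outside the promoter window. Inside that window the strongest tba-1 summit was 96.9 (rank 2677) at -325 bp, shared with cox-5B. The gene that the summit at -1095 bp belongs to is not resolved. Of the 3 other centriole genes, sas-1, sas-7 and hyls-1, 1 had a summit in the gene window and 0 in the promoter.

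**Figure D4:**
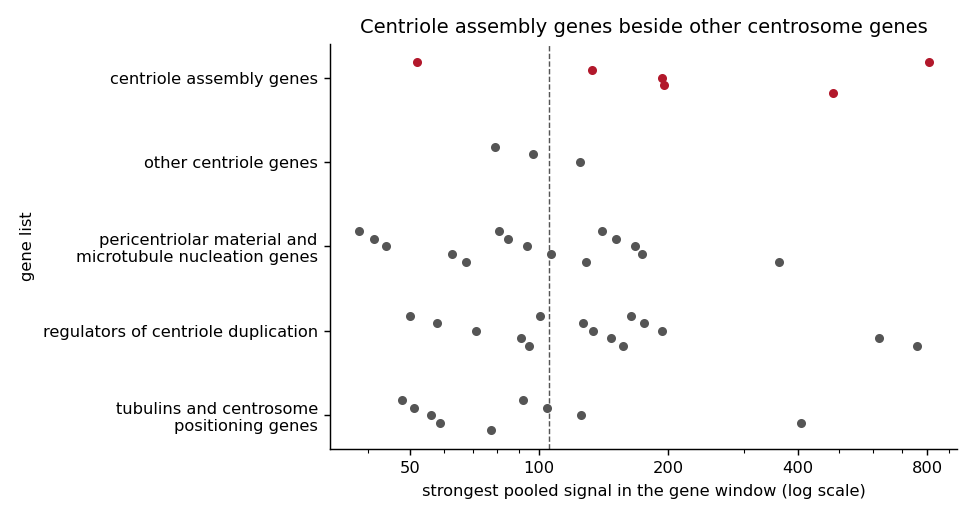
Strongest pooled signal in the gene window (horizontal, log scale, authors' units) of each centriole assembly gene and of the genes of 4 other lists, 1 point per gene, with points offset vertically for legibility. The dashed line is the lowest optimal signal, 105.5, and kin-3, with no pooled summit, is not drawn. Only lin-35, at 757, and atx-2, at 618, lie above spd-5 (484) among the other genes.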

How the data were processed

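Per the deposited file list, the authors made narrowPeak lists on ce11 and ce10 for each replicate and for the pooled alignments, and an optimal list from these. Each relaxed list also derives from 1 further file that is not described. Which peak caller and aligner were run is not given in the sources used here. Column 7 holds the deposited signal per peak, which is the authors' value with no stated normalization, and the deposited −log10 q is the q column of the same layout. Lists on ce10 were not used.

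Here, summits were assigned to gene windows and promoter windows of Ensembl release 115 gene models on WBcel235, the assembly also called ce11. Summits of different lists were matched within 200 bp. Sequence came from the RefSeq genome of that assembly, and motifs were counted as exact strings. The code was tested on simulated data with planted summits and motifs. Python 3.11.15, numpy 2.4.6 and matplotlib 3.10.9 were used. No test was run: there is 1 group, and the members, lists and motifs were chosen with earlier results of these data known. The replicates have separate biosample labels, but nothing says whether they came from separate cultures. Named were the 6 members, genes sharing their summits, up to 3 genes per other list with the strongest optimal promoter summit, and the 3 promoter summits closest to that of sas-4. The gene tba-1 was also named, for a strong summit outside its promoter window. Alternatives changed the peak list, the windows, transcript starts, the matching distance and the motif window.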

Additional observations from a re-analysis of the deposited data

How the results depend on the processing

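The count of genes with an optimal summit in the gene window (5) was 5 without either replicate, with 5000 bp upstream and with any overlap of the peak, 4 with 500 bp upstream and 0 downstream, where sas-4 (summit at -695 bp) was lost, and 4 with the 1064 strongest optimal peaks, where zyg-1 was lost. The count in promoters (4) was 4 without either replicate and ran from 3 to 5 under the other settings: sas-4 was lost with 500 bp upstream, zyg-1 with the 1064 strongest peaks, and spd-5 was gained with any transcript start. An added edge at 500 bp downstream, chosen after seeing the data, gave 5. The share of all genes is not given for these settings, and it too changes with the window and the list. The optimal list has both replicates as parents, so the counts without a replicate do not come from a newly formed optimal list. The 43 other genes fell from 19 to 12 with the 1064 strongest peaks, since fewer peaks are counted, and gave 18 to 20 without 1 replicate. In place of the pooled signal, the median of the replicates was 399.6 at sas-4, 240.7 at spd-5, 99.1 at sas-5, 93.4 at sas-6, 66.5 at zyg-1 and 25.8 at spd-2. Single replicates gave 383.6 to 415.7, 239.4 to 241.9, 96.7 to 101.4, 76.4 to 110.4, 62.9 to 70.0 and 22.02 to 29.7 in the same order. These are lower because the pooled signal is about the sum of the replicates'. Of 15 alternatives for the log2 ratios, 12 kept the sign, but those that matched within 100 or 500 bp could not change a ratio. The nearest replicate summit was taken, and it lay at most 87 bp from the pooled one. Centring on the median could change them. It made those of sas-4, sas-5 and zyg-1 slightly negative and kept the sign at sas-6 and spd-5. In 100 bp windows CAGCGGG was at 0 summits, TTCCCGC at 1 and GAGAGA at 1, and in 500 bp windows TTGGCGC was at 2. Depth is unknown, so how it limits the weak spd-2 summits was not tested.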
